A study of Danio rerio with 8 samples.

Results

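The genes described here are named for proteins of the cytosolic ribosome, though not every row need encode one. They were taken by name from a zebrafish gene table: every symbol that begins with rpl or rps and a digit, or with rplp and a digit, without the ribosomal S6 kinase genes and rps19bp1. The rule found 81 rows among 24221 genes, 49 for the large (60S) and 32 for the small (40S) subunit. The name rule leaves out some ribosomal proteins, which are given separately at the end.

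RNA-seq of polyadenylated RNA compared 2 genotypes of zebrafish larvae of strain TL, rraga mutants and their wild-type siblings, at 6 days post fertilization, with 4 libraries each. Both genotypes carried GFP under the mpeg promoter, which is active in macrophages and their relatives, and GFP-positive cells were sorted from dissociated larvae. All embryos grew in water with methylene blue and the pigment inhibitor PTU, and genotype was scored by confocal microscopy before the sort. The labels do not give the rraga allele or the number of larvae or clutches per library, so p-values cover only the spread between these samples, which may be technical. Libraries are called by the numbers of their columns, 1, 2, 4 and 5, and values are listed in that order.

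A ribosome joins a large subunit, which forms peptide bonds, to a small subunit, which reads the mRNA. Most ribosomal proteins are present once per ribosome, and in vertebrates their mRNAs start with a terminal oligopyrimidine (TOP) tract, through which the growth kinase complex mTORC1 controls their translation, in mammals by way of the RNA-binding protein LARP1. rraga encodes RagA, a GTPase that brings mTORC1 to the lysosome when amino acids are at hand.

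Library depth ran from 24940664 to 30911560 counts in mutants and from 25530526 to 29147340 in siblings. The mutated gene rraga was detected in every library, at 193, 220, 195 and 189 CPM (counts scaled to a common library size) in mutants and 129, 135, 137 and 114 CPM in siblings. Its counts were higher in mutants by 0.63 ± 0.10 on the log2 scale (SE; adjusted p = 0.00141, edgeR's quasi-likelihood test), and counts of a gene do not check a lesion that leaves its transcript in place. All 10 markers of the macrophage lineage were detected in every library. Their summed counts held 0.501 to 0.578% of all counts in mutants and 0.636 to 0.755% in siblings. The most abundant was lcp1, at a mean of 2468 CPM in mutants and 3846 CPM in siblings, so it weighs most in the sum. By the same test, 4 of the 10 were lower and 1 higher, against 13.9% and 14.5% of all genes tested. The sum hides opposite moves and does not show that the markers fell as a set. Of the 10 log2 fold changes, 7 lay below 0. The means of spi1b, mfap4 and marco were higher in mutants, at 1428, 723 and 568 CPM against 685, 622 and 442 CPM. Lower were csf1rb 4.59-fold, mpeg1.1 (named like the promoter of the sort) 3.52-fold, irf8 1.67-fold and lcp1 1.56-fold. In contrast, spi1b was 2.09-fold higher, and 5 did not pass. Of these, csf1ra stood at -0.98 (adjusted p = 0.0577) and passed with library number as a block (adjusted p = 0.00354). In that fit and in limma-voom 5 were lower and 1 higher, and in DESeq2 5 and 2. What these moves say about the sorted cells was not tested.

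Most cytosolic ribosomal protein genes fell together in rraga mutant cells. Of the 77 members with enough counts to test, 70 were lower in mutants and 1 was higher at an adjusted p under 0.05 (edgeR's quasi-likelihood test, adjusted by Benjamini-Hochberg over 16086 genes), and 6 did not pass. Over all genes tested, 13.9% were lower and 14.5% higher, 28.4% in either direction. The median member stood 1.83-fold lower, a log2 fold change of -0.87 with quartiles of -0.95 and -0.81, against a median of -0.09 over all genes. Scaled by library size alone, the medians were -1.04 and -0.26, and 73 members were lower and 1 higher. The main fit left out the library number. With it as a block, 73 members were lower and 1 higher, where 34.4% of all genes tested passed. The block removed 0 of the members' calls and added 3. In 65 members every mutant library lay below every sibling library, which held for 15.7% of all genes tested. In 1 member every mutant library lay above, which also held for 15.7%.

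The changes were narrow in range as well as shared. Of the 77 tested members, 70 had log2 fold changes within 0.3 of the median, and 11 of the called members fell at least 2-fold, against 7.76% of all genes tested. The smallest of the called falls was that of rps10, at -0.61 ± 0.17 (adjusted p = 0.0267), whose groups overlapped. It missed the threshold when any of 5 single libraries was left out (adjusted p 0.0551 to 0.0741). With library number as a block it passed (adjusted p = 0.00205). It was followed by rpl7l1 at -0.66 and rps27.2 at -0.67. The Spearman correlation of log2 fold change with length was -0.01 and with the sibling CPM 0.01 across 77 genes, which share the same libraries and are not independent replicates. Pearson correlations with the logarithms of length and CPM were 0.30 and 0.07, and 0.09 and 0.24 across 75 genes without the rows that the reference names otherwise, described further on. The 25 members shorter than 1 kb had a median of -0.86, and the 52 longer members one of -0.89.

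**Figure D1:**
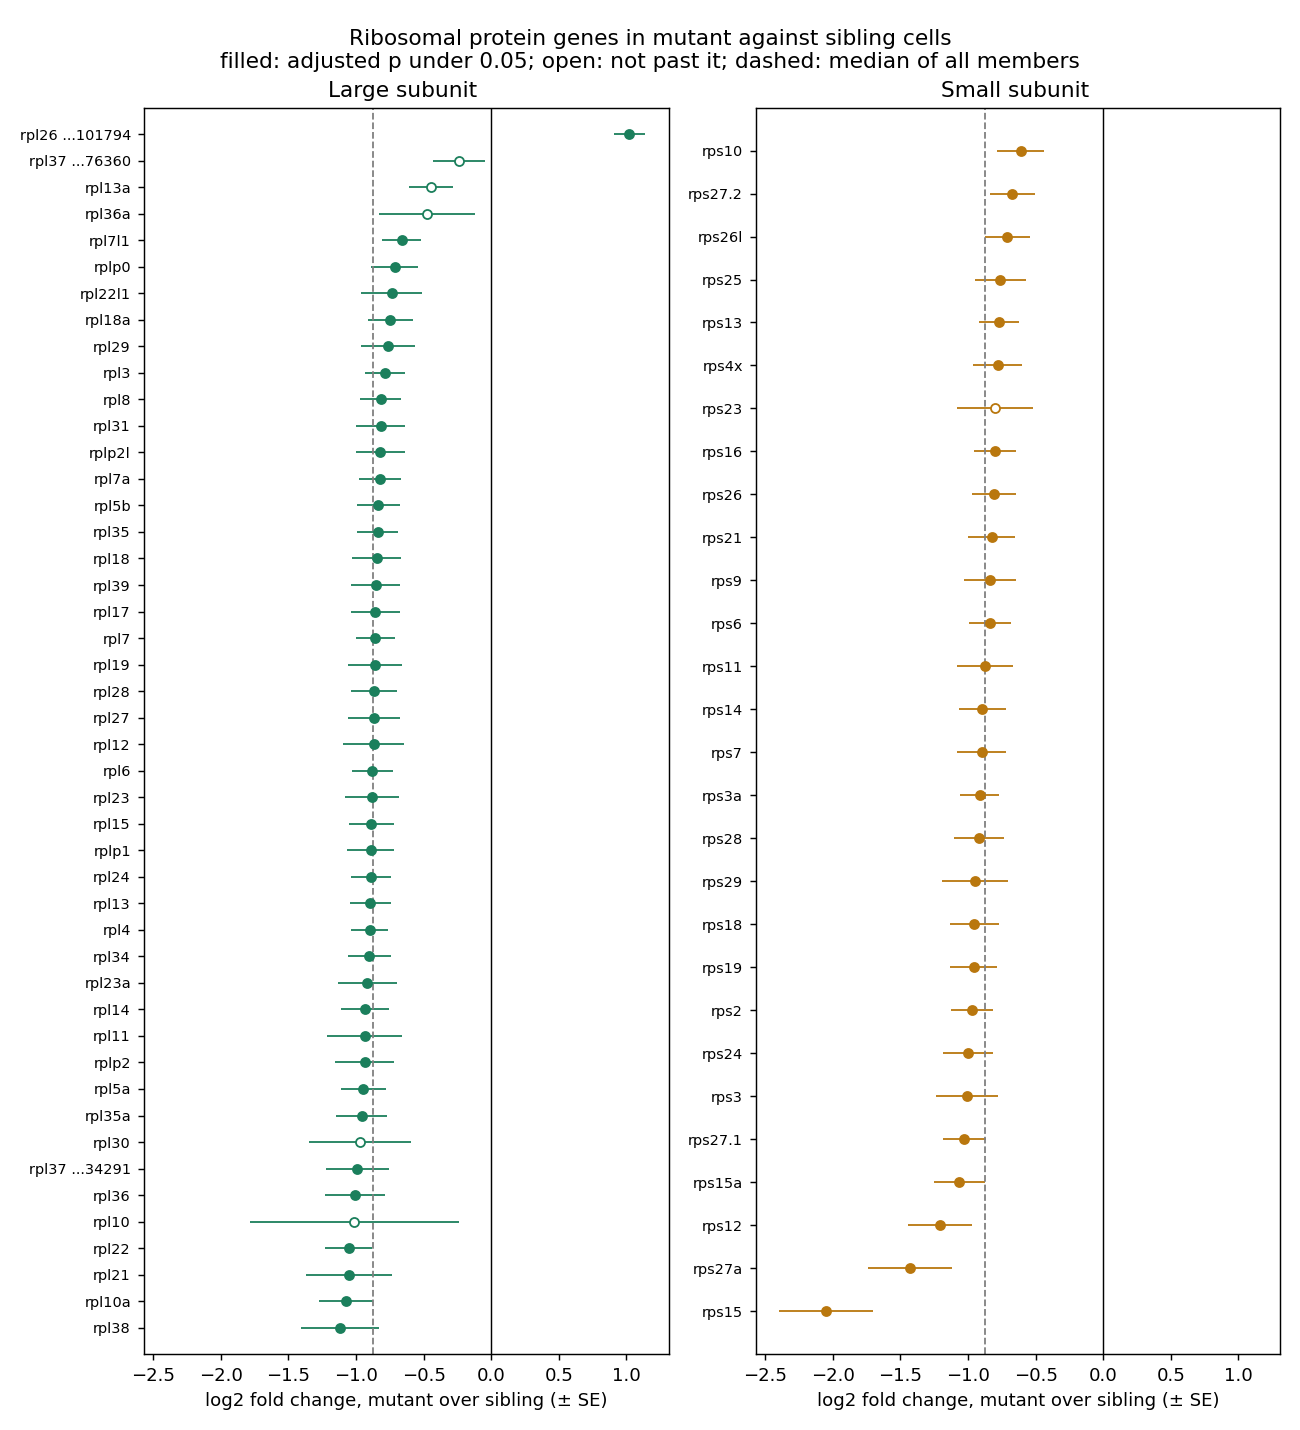
Log2 fold change, mutant over sibling, of tested members of the large (left) and small (right) subunit, with bars of 1 standard error; filled points passed an adjusted p of 0.05 and open points did not. Most points lie close to the dashed median of -0.87, with rps15 at -2.05 far below it and the rpl26 row ENSDARG00000101794 (labelled by its last digits) at 1.02 on the other side of 0.

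Each library showed the same picture in its total. Members held 2.16, 1.46, 2.06 and 1.81% of all counts in the mutants, and 4.59, 3.12, 3.63 and 3.71% in the siblings. Means were 1.87 ± 0.315% and 3.76 ± 0.610% (SD, n = 4 each), and the highest mutant share lay below the lowest sibling share. Within each library number, the sibling share was 2.12, 2.14, 1.76 and 2.06 times the mutant share, and 75 or 76 of the 77 members were lower in the mutant. Shares and CPM are relative to the other counts of the same library, and absolute amounts per cell were not measured. In sorted bulk cells, fewer cells of a type that is rich in these transcripts and fewer transcripts per cell cannot be told apart.

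**Figure D2:**
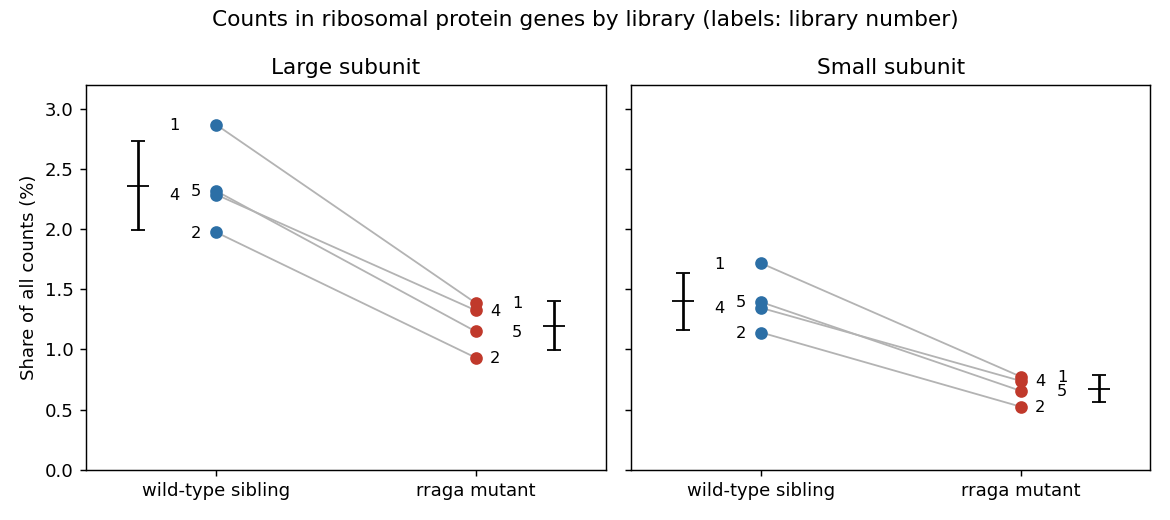
Share of all counts (%) in large subunit (left) and small subunit (right) genes in each library, with lines joining libraries of the same number and black bars for the mean ± SD of 4. The large subunit mean was 1.20% in mutants and 2.36% in siblings, the small subunit mean 0.673% and 1.40%, and no mutant point reaches a sibling point.

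Libraries of number 2 held the lowest level of most members in both genotypes: mutant 2 was lowest among mutants for 71 of 77 members and sibling 2 among siblings for 70. The median member deviated from its genotype mean by -0.33 in mutant 2 and -0.34 in sibling 2 on the log2 scale, and by +0.24 in mutant 1 and +0.33 in sibling 1. Without both number 2 libraries, 71 members were lower and 1 higher, with a median of -0.86.

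Markers of other cell types took a smaller mean share of counts in mutants. The summed counts of 15 skeletal muscle markers made up 0.437, 0.0492, 0.0736 and 0.250% of counts in the mutants and 0.386 to 0.593% in the siblings. Of the 13 tested, 0 passed in edgeR's quasi-likelihood test, 3 had an unadjusted p under 0.05, 2 passed in DESeq2, 3 in limma-voom and 8 with library number as a block, all lower in mutants. For 11 keratinocyte markers the ranges were 0.0297 to 0.122% and 0.0984 to 0.179%, with 3 of 10 tested lower. For 7 rows chosen as neutrophil markers they were 0.0850 to 0.215% and 0.0995 to 0.292%, with 2 of 6 tested lower and 1 higher. How specific these genes are to neutrophils was not checked. Both lower rows bear the same symbol, mmp13a, and the higher one was srgn. mpx, npsn and cpa5 did not pass (adjusted p 0.484 to 0.689, edgeR's quasi-likelihood test). For comparison, 13.9% of all genes tested were lower and 14.5% higher. Erythroid, neuron and lymphoid markers stayed at or below 0.00701% in every library. Among them the globin gene hbaa2 was higher in mutants, with 23 to 89 counts against 0 to 2 in siblings. rag1 was lower (adjusted p = 0.000598 and 0.0163, edgeR's quasi-likelihood test). The other erythroid markers, cahz and hbbe1.1, went the other way from hbaa2, at -1.77 and -0.93 on the log2 scale. They did not pass (adjusted p = 0.0583 and 0.458, same test), but cahz did with library number as a block (adjusted p = 0.0453). rag2, at +0.03, did not pass (adjusted p = 0.968). No marker with a row in the gene table was at 0 in all libraries. Only 3 erythroid and 5 lymphoid markers had a row, and chosen markers without one could not be examined. In mutant 1 the muscle share of 0.437% lay within the range of the siblings, but below the 0.593% of sibling 1. What part these cells had in the fall of the ribosomal protein genes was not tested.

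The subunits had nearly equal medians, and their difference was not tested. In the large subunit 40 of 46 tested members were lower, 1 was higher and 5 did not pass. Their log2 fold changes had a median of -0.87 and quartiles of -0.93 and -0.82. In the small subunit 30 of 31 were lower, 0 were higher (all 31 log2 fold changes lay below 0) and 1 did not pass, with a median of -0.89 and quartiles of -0.98 and -0.80. The ratio of summed large to summed small subunit counts was 1.78 ± 0.0188 in mutants (1.75 to 1.79) and 1.69 ± 0.0308 in siblings (1.66 to 1.73; SD, n = 4 each). Without rows that overlap another gene or repeat a symbol, the ratio was 1.73 ± 0.0182 and 1.67 ± 0.0325, and the ranges of 1.71 to 1.74 and 1.64 to 1.71 overlapped. Within library numbers the mutant ratio was the higher in 4 of 4, by 0.00109 to 0.0905.

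The order of the members by level was nearly the same in both genotypes. Per kilobase of transcript, sibling levels ran from 2.10 to 1947 CPM per kb in the large subunit (median 210) and from 16.3 to 1852 CPM per kb in the small subunit (median 235). The Spearman correlation of these levels between mutants and siblings was 0.990 across the 77 tested members. The 5 most abundant members held between 31.3 and 34.0% of the members' counts in every library. At the top, rpl19 at 1947 ± 402 and rpl3 at 1946 ± 276 CPM per kb in siblings differed by less than their SD, as did rps2 at 1852 ± 293 and rplp0 at 1784 ± 322. At the bottom, 6 tested members lay under 10% of the median member's 223 CPM per kb: rpl10, the rpl37 row ENSDARG00000076360, rpl21, rpl12, rpl13a and rps3a. Of these, rpl21, rpl12 and rps3a were lower in mutants and the others did not pass. The call of rpl12 was lost without any of 3 single libraries (adjusted p 0.0518 to 0.0546). The low levels are those of the deposited counts, and whether they match the expression of these genes was not tested.

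**Figure D3:**
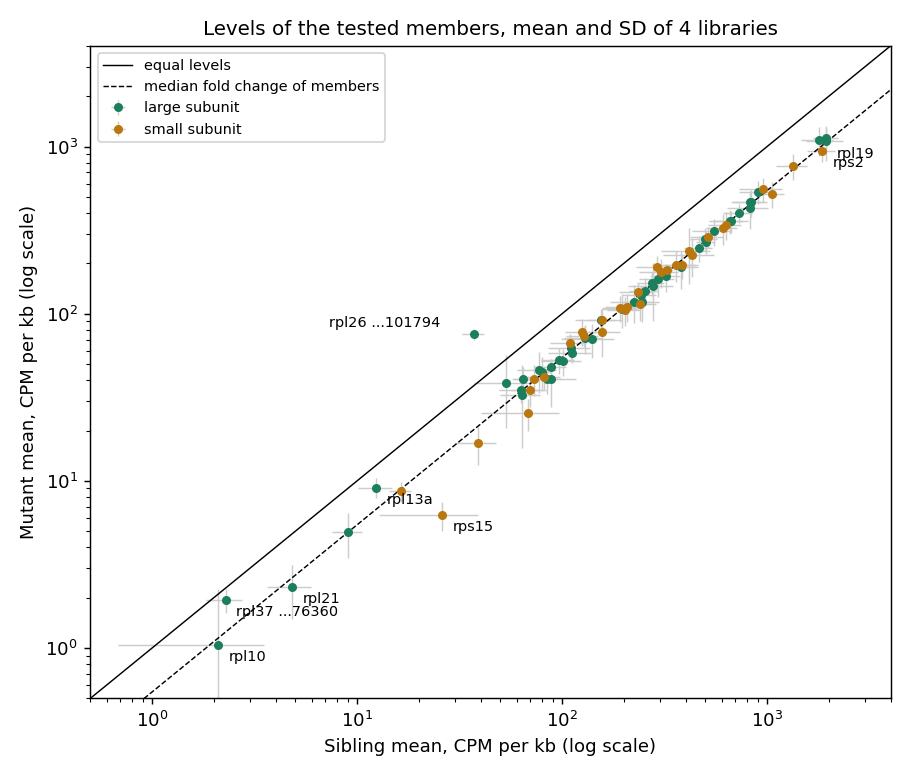
Mean level of each tested member in mutants against siblings, in CPM per kb on log axes, with bars for the SD of 4 libraries (bars that would reach below 0 run to the axis). Most points follow the dashed line of the median fold change over the whole range, and the rpl26 row ENSDARG00000101794 lies above the line of equal levels.

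Among the abundant large subunit genes, rpl3 encodes a protein that reaches towards the peptidyl transferase centre. Its level was 2188, 1639, 2128 and 1719 CPM in mutants and 3876, 2921, 3500 and 2921 CPM in siblings, and the fold change was -0.78 ± 0.15 on the log2 scale (adjusted p = 0.0037). rpl19, whose protein contributes to a bridge between the subunits, stood at 1364, 784, 1099 and 936 CPM in mutants and 2383, 1541, 2048 and 1621 CPM in siblings. It fell by 0.86 ± 0.20 (adjusted p = 0.0106). In both genes every mutant lay below every sibling.

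In the small subunit, rps2 and rps3 line the channel where mRNA enters, and both fell. rps2 stood at 1418, 1187, 1645 and 1244 CPM in mutants and 3139, 2184, 2928 and 2512 CPM in siblings, and fell by 0.97 ± 0.15 (adjusted p = 0.00152). rps3 fell by 1.01 ± 0.23. The groups of rps2 did not overlap. rps14, rps26 and rps28, whose proteins lie near the site where mRNA leaves, were lower as well, 3 of 3, with a median of -0.89.

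rps6, the substrate by which S6 kinase activity is usually read, stood at 519, 380, 512 and 438 CPM in mutants and 1029, 671, 825 and 779 CPM in siblings. It fell by 0.84 ± 0.16 (adjusted p = 0.00358), close to the median member.

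The stalk recruits translation factors to the large subunit, and all 5 genes of the stalk and its base were lower, with a median of -0.87. rplp0, the scaffold of the stalk, stood at 1602, 1014, 1316 and 1176 CPM in mutants and 2613, 1728, 2096 and 1934 CPM in siblings, and fell by 0.71 ± 0.17 (adjusted p = 0.0133). The acidic protein gene rplp1 stood at 492, 346, 485 and 428 CPM against 1031, 607, 776 and 831 CPM, and fell by 0.89 ± 0.18 (adjusted p = 0.00487). Its partner rplp2 stood at 229, 120, 188 and 173 CPM against 416, 236, 361 and 342 CPM, and fell by 0.94 ± 0.22 (adjusted p = 0.0112). Mutants lay below siblings in all 3. rplp2l fell by 0.82 and rpl12, at the base of the stalk, by 0.87.

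rpl5a, rpl5b and rpl11 encode the proteins that bind 5S ribosomal RNA, a particle that in mammals holds back the ubiquitin ligase MDM2 when ribosome assembly fails. rpl5a stood at 205, 128, 188 and 174 CPM in mutants and 415, 286, 322 and 316 CPM in siblings, and fell by 0.95 ± 0.17 (adjusted p = 0.00279). rpl5b was expressed at a lower level, at 44.4, 39.7, 64.0 and 42.5 CPM against 86.6, 74.8, 91.8 and 87.0 CPM, and fell by 0.84 ± 0.16 (adjusted p = 0.00425). rpl11 stood at 132, 52.3, 94.2 and 77.6 CPM against 213, 117, 191 and 160 CPM, with a change of -0.94 ± 0.28 (adjusted p = 0.0318). Mutant 1 of rpl11 lay above sibling 2, and the call was lost in 6 of 8 fits that left out a library (all but mutant 1 and sibling 2), with adjusted p from 0.0582 to 0.0869. With library number as a block it passed (adjusted p = 0.000532).

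Around the peptidyl transferase centre and the exit tunnel, rpl3, rpl4, rpl17 and rpl39 were lower and rpl10 did not pass. rpl39 shares its strand with the overlapping gene upf3b, so its counts are uncertain. At the rim of the tunnel exit rpl19, rpl23a, rpl31 and rpl35 were all lower, with a median of -0.85. At the decoding centre rps15 was lower and rps23 did not pass.

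The largest falls of the small subunit were those of rps15, rps27a and rps12. By sibling level per kilobase these genes ranked 30, 28 and 29 among the 32 rows of the subunit, near its bottom. rps15, whose protein has a tail that reaches towards the decoding site, stood at 3.69, 2.24, 3.35 and 3.16 CPM in mutants and 9.45, 22.4, 11.6 and 7.98 CPM in siblings. It fell by 2.05 ± 0.35 (adjusted p = 0.0022), and by 1.61 without sibling 2. Counts were low, from 51 to 101 in mutants and from 243 to 660 in siblings, and the highest value came from sibling 2, the library that was lowest among siblings for most members.

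rps27a encodes ubiquitin fused to a small subunit protein. It stood at 28.2, 34.9, 21.3 and 23.7 CPM in mutants and 87.4, 65.4, 104 and 34.4 CPM in siblings, and fell by 1.43 ± 0.31 (adjusted p = 0.00794), although mutant 2 lay just above sibling 5. rps12, a protein of the small subunit beak, stood at 13.4, 7.06, 11.9 and 9.73 CPM against 30.2, 17.4, 26.8 and 22.9 CPM, and fell by 1.21 ± 0.23 (adjusted p = 0.00464). Its groups did not overlap.

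In the large subunit the largest falls were those of rpl38, rpl10a and rpl21. rpl38, known in mice for its effect on Hox mRNA translation, stood at 60.2, 26.2, 44.0 and 42.4 CPM in mutants and 130, 56.5, 95.4 and 93.5 CPM in siblings. The change was -1.12 ± 0.29 (adjusted p = 0.0173), with mutant 1 above sibling 2, and without sibling 1 it was -0.92 (adjusted p = 0.0501). rpl10a, which encodes a protein of the L1 stalk, stood at 203, 114, 175 and 143 CPM against 423, 268, 347 and 294 CPM, without overlap, and fell by 1.07 ± 0.20 (adjusted p = 0.0038). rpl21 was scarce in the counts, at 6.54, 6.40, 6.54 and 2.59 CPM against 14.6, 10.9, 12.2 and 7.98 CPM. Its change was -1.05 ± 0.32 (adjusted p = 0.0339), without overlap, and the call was lost without mutant 1, mutant 2, sibling 1, sibling 2 or sibling 4 (adjusted p 0.0541 to 0.0934).

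To ask which members departed from the shared fall, counts were also scaled on the members themselves, so that a log2 fold change is relative to the typical member. By this scaling 3 of 77 members stood apart, against 45.5% of all genes tested (adjusted p under 0.05, edgeR's quasi-likelihood test). The scaling holds the typical member near 0 and shifts all other genes with it. The gap between these shares is thus partly built in, also with the block below, and does not show that members moved together. The rpl26 row ENSDARG00000101794 lay above the family by 1.90 ± 0.19 (adjusted p = 5.9e-05), the rpl37 row ENSDARG00000076360 above it by 0.63 ± 0.21 (adjusted p = 0.0288), and rps15 below it by 1.31 ± 0.42 (adjusted p = 0.0252). rps15 did not pass without sibling 2, where the difference was -0.69 (adjusted p = 0.0712), without mutant 1 (0.0517) or without mutant 2 (0.0630). Without both number 2 libraries the difference was -0.65 (adjusted p = 0.104), and in limma-voom it was -1.03 (adjusted p = 0.0766). The rpl37 row did not pass in 6 of 8 fits that left out a library, all but those without mutant 1 and sibling 5 (adjusted p 0.0523 to 0.0859).

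With library number as a block, 9 members stood apart, against 56.7% of all genes tested. The added members were rps10 and rpl13a, above the family by 0.26 ± 0.07 (adjusted p = 0.0159) and 0.43 ± 0.13 (adjusted p = 0.0311), and rpl38, rps15a, rps12 and rpl10a, below it by 0.25, 0.20, 0.35 and 0.22 (adjusted p 0.0338 to 0.0495). rps15 lay 1.06 below the family in this fit (adjusted p = 0.0493). A length correction added to the block left 8 members apart. It removed rpl38, rps12, rpl10a and rps15 (adjusted p 0.0545 to 0.122) and brought in rplp2l, rps25 and rps26, which lay 0.19, 0.23 and 0.22 above the family (adjusted p 0.0289 to 0.0465).

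Both rows that lay above the family in the fit without the block bear another name in the reference gene table. The row ENSDARG00000101794, on chromosome 14 from 52565660 to 52576034 of GRCz11, is called rpl26 in the deposited table and atp6v0e1, a subunit gene of the vacuolar proton pump that acidifies lysosomes, in the reference gene names. It was the member that was higher in mutants, at 381, 364, 347 and 320 CPM against 183, 147, 196 and 169 CPM in siblings, a log2 fold change of 1.02 ± 0.11 (adjusted p = 0.000223). Its groups were far apart. A shorter row of the same symbol, ENSDARG00000102317, overlaps its start on the same strand and held 0 to 3 counts per library, and in RefSeq rpl26 and atp6v0e1 are neighbours on chromosome 14. Which of the genes the counts come from was not tested, so the rise cannot be read as one of rpl26.

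The rpl37 row ENSDARG00000076360, on chromosome 2 from 49860722 to 49871576, is named COA1, a mitochondrial assembly factor gene, in the reference. It overlaps blvra on the opposite strand. Its level was 12.2, 9.65, 14.3 and 11.4 CPM in mutants and 15.9, 10.3, 13.4 and 16.4 CPM in siblings, a change of -0.24 ± 0.19 (adjusted p = 0.406) with overlapping groups, and of -0.12 without sibling 5. The other rpl37 row, ENSDARG00000034291 on chromosome 21, where RefSeq places rpl37, stood at 111, 63.2, 98.4 and 84.9 CPM against 240, 115, 185 and 170 CPM, and fell by 0.99 ± 0.23 (adjusted p = 0.0118). Without the rows that the reference names otherwise, 70 of 75 tested members were lower, 0 were higher (0 also at an unadjusted p under 0.05, in DESeq2 and in limma-voom), and all 75 log2 fold changes lay between -2.05 and -0.45.

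In addition to that rpl37 row, 5 members did not pass. rps23, whose protein lies at the decoding centre, stood at 138 ± 51.3 CPM in mutants and 241 ± 64.1 CPM in siblings, with a change of -0.80 ± 0.28 (adjusted p = 0.0606). With library number as a block the change was -0.84 and passed (adjusted p = 0.000522). rpl30 stood at 22.2 ± 11.4 CPM against 43.5 ± 9.62 CPM, with -0.97 ± 0.38 (adjusted p = 0.0843), and passed with the block (adjusted p = 0.0107). It overlaps rida on the same strand, so its counts are uncertain. rpl13a, in mammals part of a complex that silences inflammatory mRNAs in monocytes, stood at 22.4 ± 3.11 CPM against 30.6 ± 5.68 CPM, without overlap. Its change was -0.45 ± 0.16 (adjusted p = 0.0711), and -0.44 with the block (adjusted p = 0.024). rpl36a stood at 36.7 ± 17.1 CPM against 50.9 ± 15.7 CPM, with mutant 5 the highest mutant at 58.6 CPM, and a change of -0.47 ± 0.36 (adjusted p = 0.363). The change was -0.75 without mutant 5 and -0.23 without mutant 2.

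rpl10 encodes a protein that joins the large subunit late in its assembly. It stood at 0.986, 6.18, 0.779 and 1.16 CPM in mutants and 7.63, 1.19, 2.74 and 6.70 CPM in siblings, a change of -1.01 ± 0.78 (adjusted p = 0.374). Mutant 2 was the highest mutant and sibling 2 the lowest sibling. Without mutant 2 the change was -2.22 ± 0.64 (adjusted p = 0.0375), and without sibling 1 it was -0.64.

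A few rows were almost empty and could not be tested. rpl32 held 0 to 4 counts per library, rpl9 2 to 9 and the shorter rpl26 row 0 to 3. rpl9 overlaps rfc1 on its own strand. A count of 0 allows up to 3 counts, or 0.0977 to 0.132 CPM at the depth of these libraries.

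Several members have a paralog by name or a second row of the same symbol. For 9 such pairs, the log2 ratio of counts within each library was compared between genotypes, which needs no scaling between libraries. None passed an exact two-sided permutation test after Benjamini-Hochberg adjustment over the 9 pairs, where 0.0286 is the smallest raw p that 4 against 4 libraries can give. 2 pairs reached that p, which the adjustment raised to 0.129, so a difference confined to 2 pairs could not have passed. That none passed therefore does not show that the ratios were unchanged. The ratio of rpl22, which is needed for T cell development in mice, to its paralog rpl22l1 was 2.07 ± 0.127 in mutants and 2.38 ± 0.0631 in siblings (SD, n = 4 each, log2), a difference of -0.30 (exact permutation p = 0.0286, adjusted 0.129). rpl22 made up 80.5% of the pair's counts in mutants and 83.8% in siblings, and each of the 4 mutant ratios lay below each sibling ratio. Both genes were lower on their own, rpl22 by 1.05 ± 0.18 and rpl22l1 by 0.74 ± 0.23 (adjusted p = 0.00202 and 0.036), the latter lost in 6 of 8 fits that left out a library (adjusted p of 0.0621 or more). The other pair was the rpl37 rows, at 2.89 ± 0.206 and 3.64 ± 0.250, a difference of -0.75, in which the second row is the one named COA1 in the reference.

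**Figure D4:**
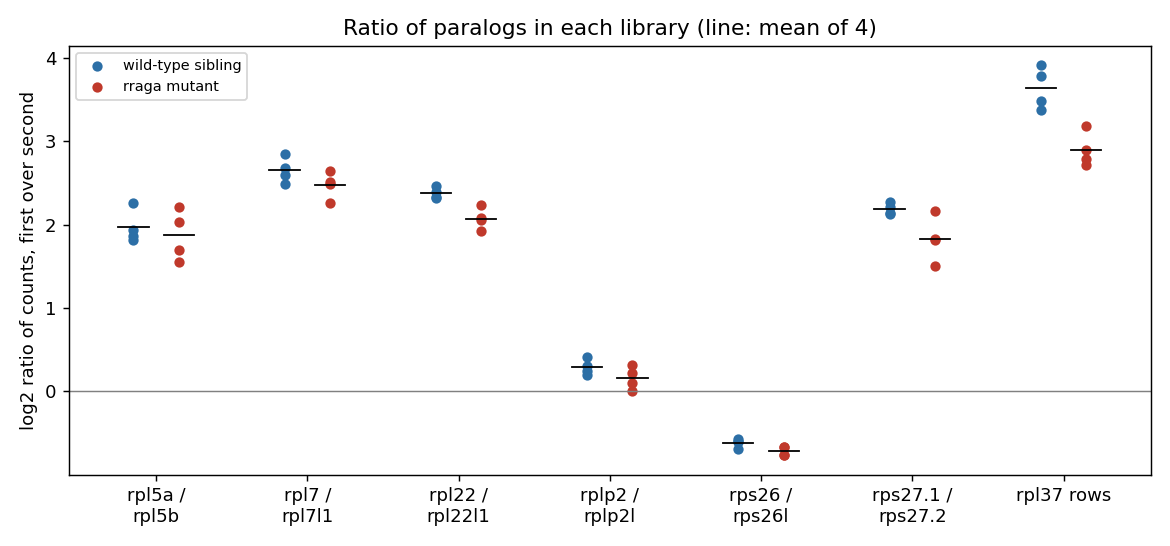
Log2 ratio of the counts of 7 paralog pairs in each library, first gene over second, for siblings (blue) and mutants (red), with the mean of 4 as a line; pairs with an almost empty member are left out. Mutant ratios of rpl22 to rpl22l1 and of the rpl37 rows lie below all sibling ratios, and the other pairs overlap.

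rps27.1 and rps27.2 encode versions of a zinc finger protein of the small subunit. rps27.1 stood at 358, 244, 347 and 278 CPM in mutants and 735, 530, 656 and 577 CPM in siblings, and fell by 1.03 ± 0.16 (adjusted p = 0.00127). rps27.2, which overlaps rab13 on the opposite strand, fell by 0.67 ± 0.17 (adjusted p = 0.0141). The difference of their log2 ratio was -0.36 (exact permutation p = 0.0857, adjusted 0.193), with 77.9% of the pair's counts in rps27.1 in mutants and 81.9% in siblings. The difference was -0.18 for rpl7 and rpl7l1, -0.13 for rplp2 and rplp2l, -0.10 for rps26 and rps26l, and -0.10 for rpl5a and rpl5b (adjusted exact permutation p from 0.193 to 0.6). For the rpl26 rows it was -1.78 (adjusted exact permutation p = 0.214), a value that rests on the 0 to 3 counts of the shorter row. Within library numbers, the mutant ratio was the lower in 4 of 4 for rps27.1 and rps27.2, rps26 and rps26l, rpl7 and rpl7l1, rpl22 and rpl22l1 and the rpl37 rows, and in 3 of 4 for rplp2 and rplp2l and for rpl5a and rpl5b. A paired exact test over 4 numbers cannot go below 0.125. Paralogs may share reads, so the split between them is uncertain.

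Some ribosomal protein genes bear other names. faua, which encodes a ubiquitin-like fusion with a small subunit protein, fell by 0.71 ± 0.19 (adjusted p = 0.0199). rack1, which encodes a scaffold on the small subunit, fell by 0.68 ± 0.16 (adjusted p = 0.0111).

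A second list held elongation and initiation factor genes, taken by name without a check for a TOP tract, and other genes known for TOP transcripts. Of 32 tested, 17 were lower and 0 higher, against 13.9% and 14.5% of all genes tested. The 0 held also at an unadjusted p under 0.05, in DESeq2 and in limma-voom. The median was -0.49 on the log2 scale, and 10 of the 32 lay above the cytosolic family when scaled on it, against 43.4% of all genes tested. The elongation factor gene eef1a1l1, which delivers aminoacyl-tRNA, stood at 4533 ± 651 CPM in mutants and 7364 ± 745 CPM in siblings, and fell by 0.70 ± 0.14. eef1da fell by 1.13 ± 0.19, eef1b2 by 0.92 ± 0.13 and eef2b, the translocase, by 0.68 ± 0.12. The poly(A)-binding protein gene pabpc1a fell by 0.64 ± 0.10. Of 16 tested genes for initiation factor 3, 7 were lower and 9 did not pass, 3 of them above 0. They ran from eif3s10, which fell by 0.59 ± 0.10, to eif3hb at +0.36 ± 0.24 (adjusted p = 0.296).

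Of the genes for mitochondrial ribosomal proteins, which build a separate ribosome, 0 of 68 tested were lower (0 also at an unadjusted p under 0.05, in DESeq2 and in limma-voom) and 8 were higher, or 12 with library number as a block. The 8 compare with 14.5% of all genes tested. Their median was +0.14, but -0.03 when counts were scaled by library size alone, with 2 lower and 4 higher. Scaled on the cytosolic family, 66 of the 68 lay above it, against 43.4% of all genes tested. The highest were mrpl53, at +0.91, and mrpl40, at +0.77.

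Among 16 tested regulators of TOP translation, 4 were lower and 1 was higher, with a median of -0.20. Over all genes tested, 13.9% were lower and 14.5% higher, 28.4% in either direction, so the count lay near that share. With library number as a block 6 were lower and 2 higher, where 34.4% of all genes tested passed. mtor, the kinase, differed by +0.18 ± 0.14 (adjusted p = 0.404), and larp1 by -0.53 ± 0.21 (adjusted p = 0.0909; 0.0327 with the block). The genes of the translational repressors eif4ebp3 and eif4ebp3l went opposite ways, the first down by 1.11 ± 0.23 (adjusted p = 0.00625) and the second up by 0.53 ± 0.09 (adjusted p = 0.00281). rps6ka1, a kinase of ribosomal protein S6, was lower at -1.20 ± 0.11, larp1b at -0.73 ± 0.22 and cnbpb at -0.59 ± 0.11.

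**Figure D5:**
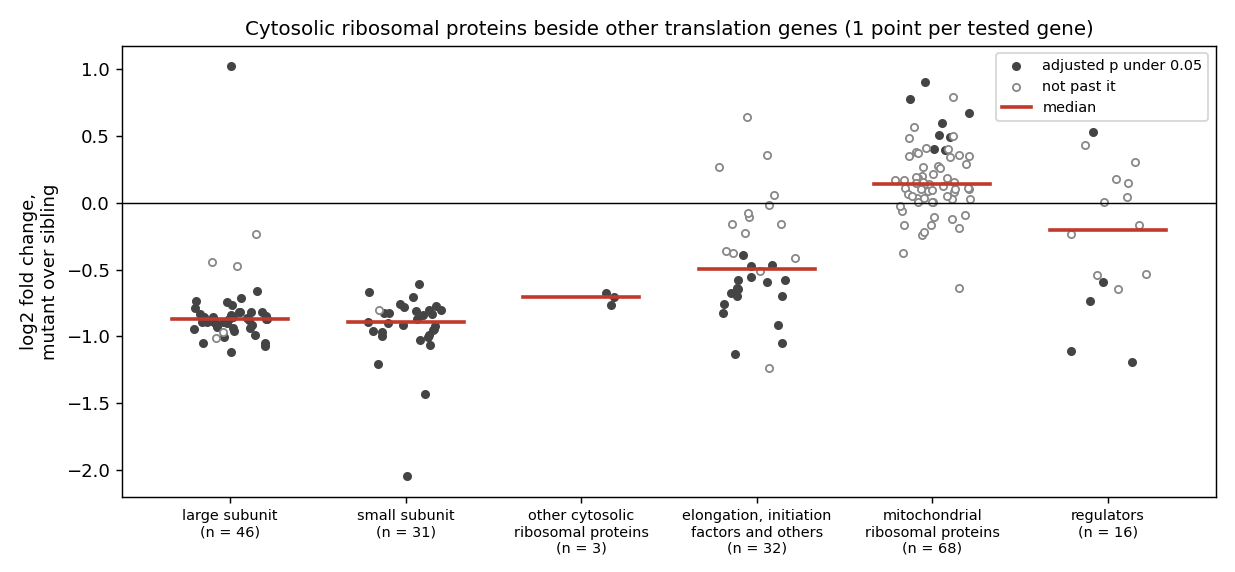
Log2 fold change, mutant over sibling, of each tested gene in both subunits and in 4 lists of other translation genes, filled where the adjusted p was under 0.05, with the median in red, on counts scaled by TMM (horizontal scatter is only for display). The cytosolic subunits sit near -0.87 and -0.89, translation factors at -0.49 and mitochondrial ribosomal proteins at +0.14 (-0.03 with library size alone, not drawn).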

How the data were processed

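Per Ensembl gene, the authors deposited raw counts of reads. The submitters' processing notes name HISAT2 2.0.5, StringTie 1.3.3b, featureCounts 1.5.0 and GRCz11. No source used here gives the strand setting. The table's gene lengths, of other origin than the counts, were used as deposited by the authors. The labels' protocols name a SMART-Seq v4 kit. Another 16 columns of values per library were not used.

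After filterByExpr (minimum count 10) 16086 genes were left, and counts scaled with TMM were compared between genotypes by edgeR's quasi-likelihood test, which had no covariate and was two-sided. P-values were adjusted by Benjamini-Hochberg, with a threshold of 0.05 (R 4.3.3, edgeR 4.0.16, limma 3.58.1, DESeq2 1.42.0). The standard error is the log2 fold change divided by the square root of F. CPM used TMM-scaled library sizes. Departure from the family was tested in the same way with median-of-ratios factors computed over the members. Paralog ratios used a pseudocount of 0.5. The procedure was tested on simulated data. The floors for a count of 0 cover counting error only.

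Columns were assigned to a genotype by name. Same-numbered libraries deviated together (correlations of 0.124 to 0.288, against -0.182 to -0.00667 for different numbers), so the numbers were taken to pair the libraries. This comes from the column names and the check, not from the labels. The main fit, its standard errors and the exact permutation tests left the pairing out. It entered only in the block and in comparisons within library numbers.

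Members and gene lists were chosen with earlier results of these data known. Full values are given for members that were higher or apart from the family, the 3 largest falls and the 3 most abundant members per kilobase of each subunit, pairs with differing calls, and rplp0, rplp1, rplp2, rps6, rpl5a, rpl5b, rpl11, rps27a, rpl10 and rps2. A few genes that the rule takes in are left out of the text. Gene names were looked up by gene identifier in a reference gene name table, and neighbours in RefSeq. All 81 members had an entry there, some under another symbol, and the rraga row is named RRAGB. Alternatives were median-of-ratios factors, library size alone, no filter, at least 5 CPM in 4 libraries, limma-voom, DESeq2, the block, and each library left out. The block with a length correction, leaving out both number 2 libraries and leaving out the rows named otherwise were chosen after seeing the data.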

Additional observations from a re-analysis of the deposited data

Results flagged for a closer look

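In 3 of 48 sets of 4 libraries examined, the highest or lowest library stood far from the other 3, and chance flags about 1 in 20 such sets. rpl10 stood at 6.18 CPM in mutant 2, above the other mutants, which lay between 0.779 and 1.16 CPM. rpl21 stood at 2.59 CPM in mutant 5, below the other mutants at 6.40 to 6.54 CPM. The shorter rpl26 row, which holds almost no counts, stood at 0.0332 CPM in mutant 5, from 1 count, and at 0 in the other mutants.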

How the results depend on the processing

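The number of lower members was 69 to 73 under other scalings, filters and tools, 62 to 70 when a library was left out, and 73 with the replicate block, and 63 of the 71 calls held whichever library was left out. Their median log2 fold change was -1.04 to -0.75. Scaling by library size alone moved the median of all genes from -0.09 to -0.26 and the share of changed genes that were higher from 51.1% to 34.7%, while the members lay 0.79 and 0.78 below that median. Members higher numbered 1, or 0 without the rows that the reference names otherwise. Members apart from the family numbered 3, but 9 with the replicate block, 8 with the block and a length correction, 1 without the rows named otherwise, and 1 to 3 when a library was left out. The large to small ratio in mutants was 1.78, or 1.73 without overlapping rows. The mutant minus sibling difference in the log2 ratio of rpl5a to rpl5b, at -0.10, ran from -0.21 to 0.0095 when a library was left out, above 0 without mutant 4 or sibling 1. Among named members 340 alternatives left the call as it was, 14 lost it, 2 gained it and 0 turned direction. The cause of these shifts was not tested. Low counts limit rps15, rpl10 and rpl21, and 4 members could not be tested.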

Other observations

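The following rows were chosen after their values were seen. Some ribosomal protein genes stand outside the name rule, rpsa because no digit follows rps, and others because the deposited table gives them other names. rpsa, the laminin receptor protein of the small subunit, stood at 1297 ± 233 CPM in mutants and 2169 ± 421 CPM in siblings (SD, n = 4 each) and fell by 0.74 ± 0.17 on the log2 scale (adjusted p = 0.0106, edgeR's quasi-likelihood test). The row FO704736.1, named rps20 in the reference, stood at 798 ± 151 CPM against 1633 ± 309 CPM and fell by 1.03 ± 0.18 (adjusted p = 0.00233). The row CABZ01079011.1, named rps27l in the reference, stood at 86.2 ± 18.8 CPM against 98.9 ± 21.8 CPM, a change of -0.20 ± 0.19 that did not pass (adjusted p = 0.494). Relative to the family it lay 0.67 ± 0.21 higher (adjusted p = 0.0215).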
